A study of Sus scrofa with 5 samples.

Results

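The HOX genes encode homeodomain transcription factors that lie in 4 clusters, HOXA to HOXD, and carry a paralogue number from 1 to 13 by their position in the cluster. They were taken here as the rows of a pig dorsal root ganglion table whose symbol is HOXA, HOXB, HOXC or HOXD followed by a number. The rule found 36 of 30477 rows: 8 HOXA, 10 HOXB, 9 HOXC and 9 HOXD genes. No row carried the symbols HOXA4, HOXA6 or HOXA9. A row that carried only an Ensembl identifier was paired with HOXA9 by the gene name table, and it is given separately and kept out of every sum.

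In the embryo, HOX genes at the low-number end of a cluster are switched on first and reach furthest towards the head, and those at the high-number end are switched on later and further towards the tail. This order, called collinearity, gives cells along the body axis a code of position that ganglia and spinal cord can keep into adult life. HOX proteins bind DNA together with TALE homeodomain partners of the PBX, MEIS and PKNOX families. Groups 4 to 8 are known for cervical and brachial to thoracic levels, group 9 for thoracic and group 10 for lumbar levels, and the highest numbers for sacral and tail levels.

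The animals were 5 male Landrace pigs with no treatment named, and each gave thoracic plus lumbar tissue. Ages are not stated, and thoracic and lumbar tissue was not kept apart, so a HOX level cannot be assigned to either. The labels give neurons as the cell type. Some of the preparations selected nuclei that carry NeuN, a neuronal nuclear protein, and others used a density gradient. Over 2189 nuclei, 17277376 molecules were counted by their molecular tags (UMIs, 1 per captured RNA). Barcodes carried 6 different endings, called libraries 1 to 6 below. No barcode sequence occurred in more than 1 library, and nothing tied libraries to pigs or preparations. All nuclei together therefore count as a single sample. No test was possible and no p-value is given. Intervals are 95% and cover counting error only.

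Libraries 1, 3, 4, 5 and 6 held 682, 805, 75, 331 and 283 nuclei. Library 2, with 13 nuclei, entered the totals but no comparison between libraries. UMIs per library ranged from 760816 to 4910023. The median per nucleus was 4565 UMIs, from 2647 in library 1 to 12040 in library 6, leaving out library 2. UMIs of the mitochondrial genome made up 4.77%, 24.3%, 1.79%, 0.14% and 0.071% of libraries 1, 3, 4, 5 and 6. The 9 sensory neuron marker rows summed to between 4789 and 16630 UMIs per 1000000 UMIs (CPM) in these libraries. Satellite glia markers summed to 2278 CPM in library 1 and to between 217 and 1123 CPM in the other four. Of 4 motor neuron and spinal cord genes, MNX1 and SLC18A3 had 0 UMIs, CHAT had 14, and SLC5A7 had 704, with 122.8 CPM in the IL31RA and 80.3 CPM in the GFRA2 nuclei described below.

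HOX transcripts were detected from all 4 clusters, and nearly all came from paralogue groups 1 to 10. The 36 rows held 2784 UMIs, or 161 CPM (155 to 167). Of the 36, 30 had at least 1 UMI. HOXB1, HOXB13, HOXC12, HOXD11, HOXD12 and HOXD13 had 0 UMIs, which with a limit of 3 counts allows a UMI in up to 0.137% of nuclei for each. A further 7 rows had between 1 and 3 UMIs. There were 8 rows with 4 to 49 UMIs (HOXA3, HOXB3, HOXB4, HOXB9, HOXC5, HOXC10, HOXD4 and HOXD9) and 15 rows with at least 50, which are described singly below.

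The clusters contributed unequal parts. HOXB gave 50.1 CPM and 31.1% of HOX UMIs, HOXA 42.6 CPM and 26.4%, and HOXD 40.6 CPM and 25.2%. HOXC gave 27.9 CPM (25.5 to 30.5) and 17.3% (15.9 to 18.8). The clusters lie on Sscrofa11.1 at chr18:45373340-45480306 (HOXA), chr12:24784953-24950661 (HOXB), chr5:19151096-19268267 (HOXC) and chr15:81893997-81990026 (HOXD), from the first to the last base of their RefSeq genes matched by symbol. Of the 36 rows, 33 matched a RefSeq gene.

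By position in the cluster, the middle groups dominated and groups 11 to 13 were near 0. Groups 1 to 3 gave 22.0% of HOX UMIs, groups 4 to 8 gave 66.0% (64.2 to 67.7) and groups 9 and above 12.0% (10.8 to 13.3). With the HOXA9 row counted, the last share was 21.3%. The 9 rows of groups 11 to 13 held 5 UMIs together, or 0.289 CPM (0.094 to 0.675). Group 10, the lumbar group, was carried by HOXA10 with 142 UMIs, whereas HOXC10 had 17 and HOXD10 had 2.

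**Figure D1:**
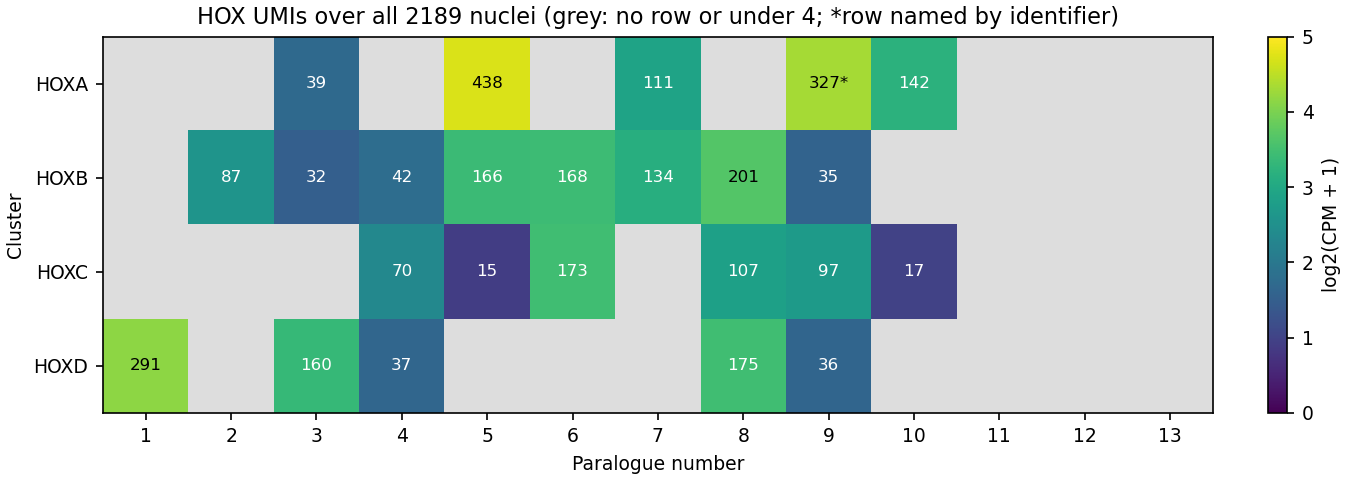
UMIs of each HOX row over all nuclei, by cluster (rows) and paralogue number (columns); colour gives log2(CPM + 1), grey marks places with no row or with under 4 UMIs, and the star marks the HOXA9 row named by identifier. The bright cells are HOXA5 (438 UMIs) and HOXD1 (291), and the columns 11 to 13 are grey throughout.

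The most abundant member was HOXA5, a gene known for patterning at cervical and upper thoracic levels, with 438 UMIs in 288 nuclei and 25.4 CPM (23.0 to 27.8). HOXD1, known in mice for a role in the wiring of pain-sensing neurons, followed with 16.8 CPM in 193 nuclei. HOXB8, whose loss in mice alters grooming and pain sensation, reached 11.6 CPM. HOXD8 (10.1 CPM), HOXC6 (10.0), HOXB6 (9.72), HOXB5 (9.61) and HOXD3 (9.26) lay close together, with intervals that overlapped throughout. HOXA10 gave 8.22, HOXB7 7.76, HOXA7 6.42, HOXC8 6.19, HOXC9 5.61, HOXB2 5.04 and HOXC4 4.05 CPM. The HOXA9 row held 327 UMIs and 18.9 CPM, between HOXA5 and HOXD1.

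These UMIs come from priming near RNA 3′ ends or within introns and are not scaled by gene length, so the order is one of detection. Per kilobase of RefSeq gene span, HOXA5 (144 UMIs) and HOXD1 (121 UMIs) again stood above the other named rows. HOXA7 came next with 56.2 and HOXC4 was lowest with 3.92 UMIs per kilobase. Some genes overlap in RefSeq: HOXD9 with HOXD10 over 9793 bases, HOXA3 with HOXA5 over 3033 bases, and HOXD11 with HOXD9 over 351 bases. How reads in such overlaps were counted is not stated, and the gene models used for counting may differ from RefSeq.

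Single nuclei held few HOX molecules. A HOX UMI was found in 1097 of 2189 nuclei (50.1%, 48.0 to 52.2). After each nucleus was thinned to 1000 UMIs, which left out 125 shallower nuclei, the share was 14.5% (13.04 to 16.1). No class of nuclei known to lack HOX expression was separated here, so the part of free RNA in these shares was not tested. There were 567 nuclei with 1 HOX UMI, 412 with 2 to 4, 78 with 5 to 9 and 40 with 10 or more. The median depth of those bins went up from 4886 to 49680 UMIs.

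Of the 40 nuclei with 10 or more HOX UMIs, 27 held UMIs from all 4 clusters, with a median of 7.5 HOX rows. The nucleus with the most, in library 6, held 45 HOX UMIs from 17 HOX rows among 338372 UMIs. A nucleus of library 4 with many UMIs of PVALB, a calcium-binding protein of proprioceptors, held 33 HOX UMIs from 13 rows among 54152 UMIs. Without the HOXA9 row, the highest paralogue number seen was 8 in 245 nuclei, 9 in 107, 10 in 121, 11 in 3 and 13 in 2. The HOXA9 row alone had a UMI in 243 nuclei, so counting it would move nuclei from lower numbers to 9. The 30 nuclei above 50000 UMIs gave 16.8% of all UMIs and 16.1% of HOX UMIs, so the HOX level there (154 CPM) was close to that of the rest (162.5 CPM).

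The HOX code differed between libraries more than counting error allows. The summed level was 205 CPM in library 1, 180 in library 3, 296 (270.5 to 323) in library 4, 74.8 (64.4 to 86.5) in library 5 and 119 in library 6. Each library was compared with the other four, and a row with at least 50 UMIs over both sides was counted when its CPM differed at least 2-fold. This is a count of sizes, not a test. In library 5, 11 of the 15 HOX rows were lower, where 13.1% of all rows were, and 0 were higher (7.43% of all rows). In library 4, 5 of 15 were higher (10.5% of all rows) and 0 lower (7.50%). Library 1 had 7 higher (18.8%) and 2 lower (20.1%). Library 3 had 2 higher (2.01%) and 4 lower (25.6%). Library 6 had 0 higher (7.80%) and 4 lower (14.0%). The median log2 ratio of the 15 rows was -1.53 in library 5, against 0.00 over all rows, and 0.69 in library 4, against 0.06.

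**Figure D2:**
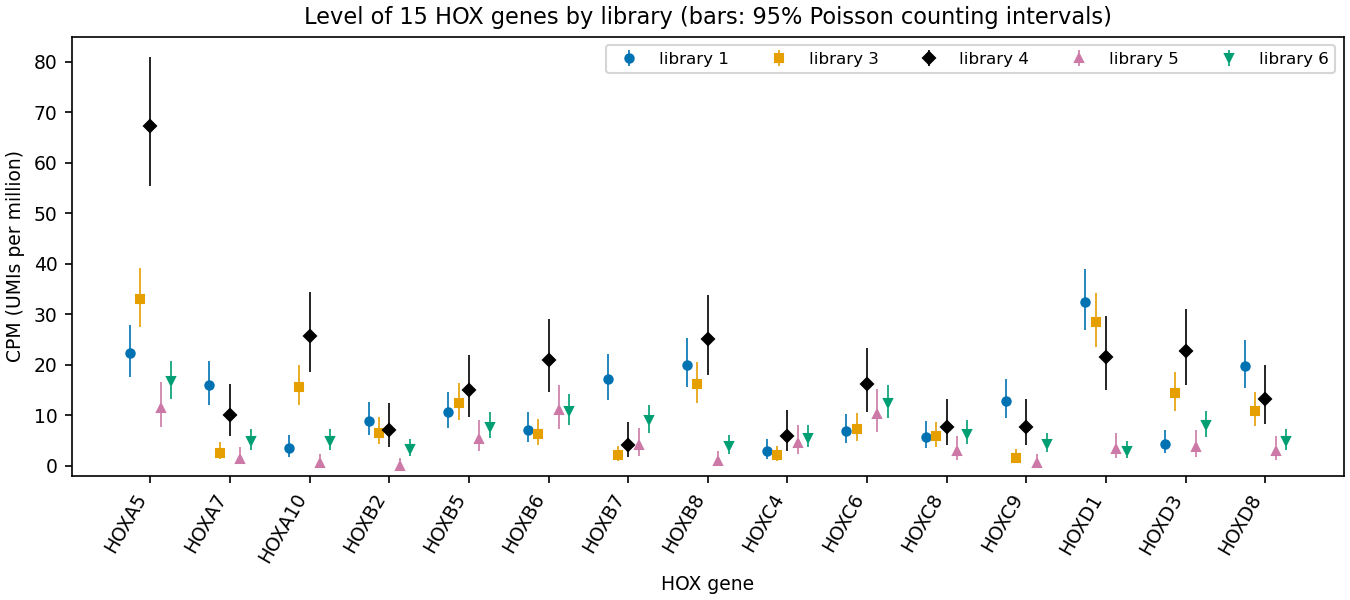
CPM of the 15 HOX genes with at least 50 UMIs in the 5 libraries with at least 50 nuclei; points are libraries and bars are 95% Poisson intervals. Library 5 is lowest for most genes, library 4 is highest for HOXA5 at 67.3 CPM, and libraries 5 and 6 sit low together for HOXD1.

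HOXD1 divided libraries 1, 3 and 4 from libraries 5 and 6. Its level was 32.5, 28.4 and 21.4 CPM in libraries 1, 3 and 4, and 3.27 and 2.85 CPM in libraries 5 and 6. The intervals of the former and the latter do not overlap. HOXB8 followed the same division, with 19.97, 16.1 and 25.0 CPM against 0.818 and 3.87 CPM. HOXD8 did so too, with 19.7, 10.8 and 13.1 CPM against 2.86 and 4.89 CPM. HOXB2 was at 8.84, 6.54 and 7.15 CPM against 0 UMIs and 3.26 CPM, and there the library 6 interval overlaps those of libraries 3 and 4. Libraries 5 and 6 were also those with under 1% mitochondrial UMIs.

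Other genes divided the libraries differently. HOXA10 was high in libraries 3 (15.6 CPM) and 4 (25.6 CPM) and low in libraries 1 (3.42), 5 (0.409, from 1 UMI) and 6 (4.89). HOXA7, HOXB7 and HOXC9 were highest in library 1, at 16.0, 17.1 and 12.8 CPM. In library 3 they were at 2.52, 2.01 and 1.51 CPM. HOXC9 is known for setting thoracic identity in motor neurons, and HOXA7 and HOXB7 are trunk-level genes. Over all nuclei, HOXA7 was at 3.99 CPM without library 1. HOXA5 was highest in library 4 (67.3 CPM), 5.88-fold above library 5. HOXD3 was also highest there, at 22.6 CPM against 4.28 in library 1.

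Of the clusters, HOXC was the most even in level across these 5 libraries, between 17.9 CPM (library 3) and 40.5 CPM (library 4). HOXB ranged from 28.2 to 82.8, HOXA from 14.7 to 109.6 and HOXD from 11.9 to 63.1 CPM. As a share of HOX UMIs, HOXC made up 26.8% and 25.9% in libraries 5 and 6, and 14.5%, 9.92% and 13.7% in libraries 1, 3 and 4. Groups 9 and above took from 5.46% (library 5) to 14.5% (library 4) of HOX UMIs. Ganglion level, animal, preparation and library cannot be told apart in these differences. The libraries also differed in their mix of the neuron marker groups described below. Library 5 held 67 GFRA2, 53 IL31RA and 3 PVALB nuclei, and library 1 held 32, 83 and 63. The part of that mix in the library differences was not tested.

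Nuclei were then compared in groups set by 7 marker genes. TRPM8 is the cold-sensing channel, IL31RA a receptor for an itch cytokine, GFRA2 the neurturin co-receptor, and ADCYAP1 encodes the peptide PACAP. NTRK2 and NTRK3 are neurotrophin receptors of touch and large-fibre neurons, and PVALB is known as a marker of proprioceptors. A nucleus with at least 2 UMIs of a marker joined the marker with the largest level relative to its level in the whole table. This grouped 1353 nuclei: 174 by TRPM8, 267 by IL31RA, 170 by GFRA2, 241 by ADCYAP1, 238 by NTRK2, 145 by NTRK3 and 118 by PVALB. The other 836 nuclei were shallower (median 2066 UMIs) and had a HOX level of 188 CPM. The groups are named by marker only, and no neuron class was assigned to them. In the PVALB group NTRK3 was at 213 CPM, against 210 CPM over all nuclei and 1444 CPM in the NTRK3 group. PVALB was at 58.55 CPM in the NTRK3 group and 73.4 CPM over all nuclei. The grouping rule keeps nuclei with a larger relative NTRK3 level out of the PVALB group. Each group was compared with the other grouped nuclei, so the 7 comparisons share nuclei.

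HOX levels followed the marker groups, with parvalbumin nuclei at the top and the IL31RA and GFRA2 nuclei at the bottom. Summed HOX was 381 CPM (342 to 423) in the PVALB group, 205 in NTRK2, 202 in NTRK3, 182 in ADCYAP1, 142 in TRPM8, 82.6 in GFRA2 and 80.9 CPM (71.1 to 91.7) in IL31RA. Neighbours in this order whose ratio interval held 1 were NTRK2 and NTRK3 (1.01, 0.875 to 1.17), NTRK3 and ADCYAP1 (1.12, 0.970 to 1.28), and GFRA2 and IL31RA (1.02, 0.846 to 1.23). The step from NTRK2 to PVALB was 1.86-fold (1.60 to 2.15), and that from GFRA2 to TRPM8 was 1.72-fold (1.435 to 2.07). These steps are pooled over libraries. In library 3, PVALB nuclei were at 298 CPM (219 to 396) and NTRK2 nuclei at 258.5 CPM (216 to 306), with overlapping intervals. PVALB against NTRK2 nuclei were at 366 against 213 CPM in library 1 and 517 against 326 CPM in library 4. The step from TRPM8 to ADCYAP1 was 1.28-fold (1.10 to 1.49) when pooled, but its direction differed between libraries. TRPM8 nuclei were at 209, 174, 89.9 and 138 CPM in libraries 1, 3, 5 and 6. ADCYAP1 nuclei were at 198, 162, 94.95 and 155 CPM there. After thinning to 1000 UMIs, 25.6% of PVALB nuclei (18.0 to 34.5) held a HOX UMI, against 6.04% of IL31RA (3.49 to 9.62) and 5.88% of GFRA2 nuclei. Unthinned, the shares were 79.7, 51.7 and 45.3%, at median depths of 5412, 8191 and 9326 UMIs.

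**Figure D3:**
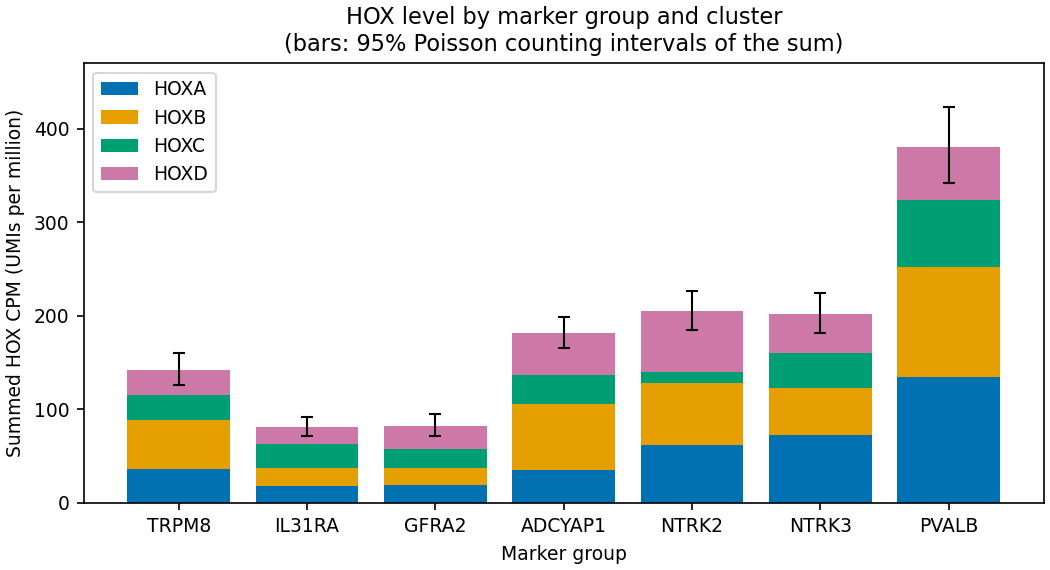
Summed HOX CPM in the 7 marker groups, stacked by cluster, with 95% Poisson intervals of the sum. The PVALB bar reaches 381 CPM and the IL31RA and GFRA2 bars stay below 83 CPM, and the HOXC segment is thinnest in NTRK2, at 12.4 CPM.

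The comparison was repeated within libraries. A library was used when both sides had at least 10 nuclei. For each HOX row or sum, at least 10 of its UMIs among the grouped nuclei of that library were also needed. Counts of libraries such as 2 of 2 therefore leave out libraries with fewer UMIs. PVALB nuclei were higher in 3 of 3 libraries, at 366 against 175 CPM in library 1, 298 against 155 in library 3 and 517 against 267 in library 4. GFRA2 nuclei were lower in 4 of 4 libraries, with log2 ratios from -1.39 to -0.36. IL31RA nuclei were lower in 3 of 4, with a log2 ratio of 0.17 in library 5. NTRK2 nuclei were higher in 5 of 5, by log2 ratios from 0.02 to 0.87. NTRK3 nuclei were higher in 4 of 5, with -0.49 in library 4, and ADCYAP1 nuclei in 2 of 4. The pooled ADCYAP1 log2 ratio of 0.26 was -0.05 as a mean of CPM over nuclei and -0.19 after thinning to 1000 UMIs. TRPM8 nuclei had a pooled log2 ratio of -0.16 and a mean within libraries of 0.24, the opposite direction. The PVALB ratio was 2.70-fold (2.40 to 3.02), or 1.43 on the log2 scale, when pooled, and 0.99 on that scale as the mean within libraries. Library 1 held 53.4% of PVALB nuclei.

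**Figure D4:**
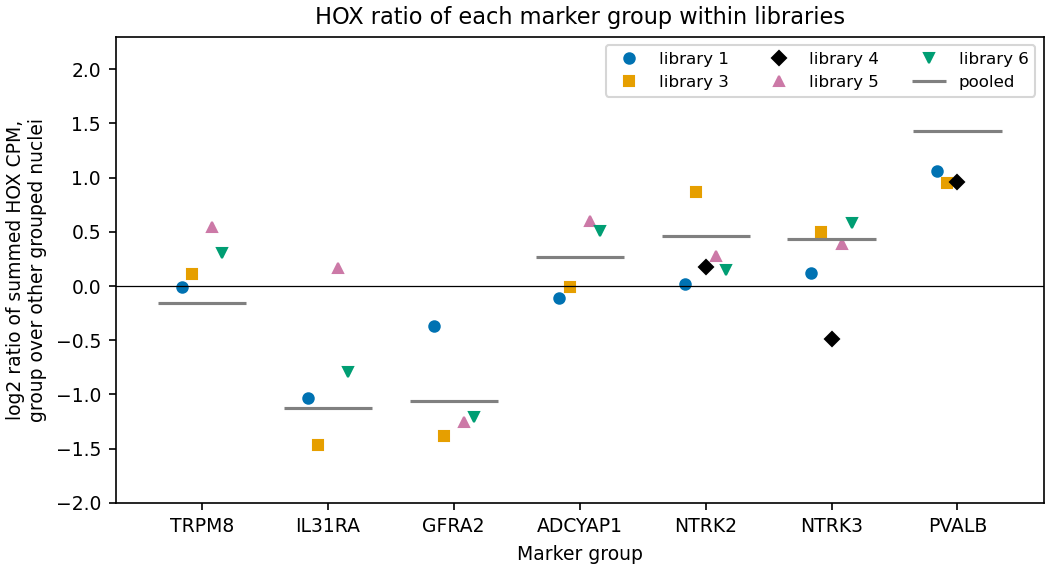
Log2 ratio of summed HOX CPM, each marker group over the other grouped nuclei, within each library (points) and pooled (grey lines). PVALB points lie near 1 in 3 libraries, GFRA2 points all lie below 0, and TRPM8 points lie near or above 0 although its pooled line is below.

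When pooled, PVALB nuclei had higher levels of HOX genes from all 4 clusters. Within libraries, the HOXA, HOXB and HOXC sums were each higher in 3 of 3. The HOXD sum was at 57.2 against 34.9 CPM when pooled (1.64-fold, 1.21 to 2.18). It was higher in 2 of 3 libraries and lower in 1, with log2 ratios from -0.17 to 0.86. Of the 15 rows, 9 were at least 2-fold higher (14.4% of all rows were) and 0 lower (21.6%), with a median log2 ratio of 1.13 against -0.18 over all rows. HOXA7 was at 44.3 against 4.50 CPM, 9.84-fold (6.47 to 14.8). The difference stood at 63.1 against 8.93 CPM in library 1 and 32.3 against 7.64 CPM in library 4, the libraries with enough UMIs, and without library 1 its log2 ratio was 2.31 in place of 3.30. HOXB8 was at 56.1 against 8.78 CPM (6.40-fold, 4.53 to 8.92), higher in 3 of 3 libraries. HOXA10 was at 30.2 against 6.75 CPM (4.48-fold, 2.83 to 6.90), with 91.6 against 17.4 CPM in library 4, and higher in 3 of 3 libraries. Its log2 ratio was 2.16 with all libraries, 2.90 without library 1 and 1.43 without library 4. HOXB2 was 3.59-fold higher, in 3 of 3 libraries. HOXC8 (2.82-fold) and HOXA5 (2.41-fold) were higher in 3 of 3 libraries, HOXB7 (2.19-fold) in 1 of 1 and HOXD1 (2.04-fold) in 2 of 3.

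HOXC9 rested on library 1. It was 6.48-fold higher (3.96 to 10.3), with 44.5 against 6.70 CPM in library 1 but 5.39 against 8.33 CPM in library 4. Its log2 ratio was 0.93 without library 1, in place of 2.70. The group 9 and above sum was 72.3 against 16.4 CPM (4.41-fold, 3.31 to 5.82) and was higher in 3 of 3 libraries. The sum of groups 1 to 3 was 49.7 against 29.7 CPM and was higher in 1 of 3. HOXD3 was the 1 of 15 rows with a ratio below 1, at 5.40 against 8.92 CPM, with a ratio interval from 0.193 to 1.45. The HOXA9 row was 2.71-fold higher (1.91 to 3.77), in 3 of 3 libraries.

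Glial and fibroblast markers moved with the PVALB group. The 6 satellite glia markers, all with UMIs in each group, summed to 2041 CPM there and to between 470 and 1069 CPM in the other 6 groups, and the 5 Schwann cell markers to 806 CPM against 381 CPM in the other grouped nuclei. In library 1 the satellite glia sum was 1899 in PVALB nuclei against 2169 CPM in the other grouped nuclei, while HOX was 366 against 175 CPM. In library 3 it was 418 against 351 CPM, and in library 4 it was 4209 against 724 CPM. The 5 fibroblast markers summed to 264.5 CPM against 127 CPM in the other grouped nuclei, with 3 past 2-fold higher (COL1A1, COL1A2 and LUM), and to 598 against 73.6 CPM in library 4 and 206 against 303 CPM in library 1. The part of glial or fibroblast RNA in the PVALB levels was not tested. The sensory neuron markers summed to 26490 CPM in the PVALB group, of which NEFL gave 18210. NEFL, UCHL1 and SNAP25 were past 2-fold higher there and SCN9A, AVIL and RBFOX3 lower, with a list median log2 ratio of -0.14, and POU4F1 of that list had 0 UMIs there and in the NTRK3 group.

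IL31RA and GFRA2 nuclei had low levels of many HOX genes. In the IL31RA group 11 of 15 rows were at least 2-fold lower (8.67% of all rows) and 0 higher (2.28%), with a median log2 ratio of -1.24 against -0.12. In the GFRA2 group 10 of 15 were lower (7.40%) and 0 higher (3.00%), with medians of -1.17 and -0.08. Without library 3 the IL31RA count was 7, and with Leiden clusters in place of marker groups it was 6. When nuclei with several markers were counted in each of their groups (overlapping groups), the counts were 5 in IL31RA and 3 in GFRA2. HOXA7 was at 1.32 CPM in IL31RA nuclei against 8.47 CPM in the others, 6.42-fold lower (2.43 to 24.0), and lower in 2 of 2 libraries. Its log2 ratio was -1.50 without library 1 and -3.35 without library 6, in place of -2.68. HOXB8 was at 3.30 against 13.95 CPM and HOXD1 at 4.62 against 15.2 CPM, each lower in 3 of 3 libraries. HOXA10 (2.97 against 9.59 CPM) and HOXB5 (3.96 against 10.4 CPM) were also lower in 3 of 3. Without library 3, the log2 ratio of HOXA10 was -2.66 in place of -1.69.

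In the IL31RA group, HOXC differed less than the other clusters. Summed HOXC was 26.1 against 29.2 CPM (ratio 0.894, 0.690 to 1.14), higher in 2 of 4 libraries and lower in 2. HOXA was 2.79-fold lower (2.11 to 3.77), HOXB 2.87-fold lower (2.19 to 3.81) and HOXD 2.35-fold lower (1.77 to 3.19). HOXC made up 32.2% of the HOX UMIs of IL31RA nuclei (26.4 to 38.5) and 16.6% of those of the other grouped nuclei. Of the 79 pooled HOXC UMIs of IL31RA nuclei, 23, 6, 12 and 24 lay in libraries 1, 3, 5 and 6. The rest came from 1 nucleus each of libraries 2 and 4, and they raise the pooled HOXC values. The HOXC share was higher in IL31RA nuclei in each of the 4 libraries: 31.1 against 13.4%, 13.95 against 10.2%, 31.6 against 21.4% and 33.3 against 24.6% in libraries 1, 3, 5 and 6. Its members diverged. HOXC6 was at 11.9 against 10.1 CPM and HOXC4 at 4.95 against 3.59 CPM, with ratio intervals that held 1. HOXC8 was 2.02-fold lower (1.04 to 4.38), in 2 of 3 libraries, and HOXC9 had a ratio of 0.601 (0.298 to 1.11) and was lower in 2 of 2.

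In GFRA2 nuclei, summed HOXB was 18.3 against 54.7 CPM, 2.98-fold lower (2.22 to 4.10), and lower in 4 of 4 libraries. HOXB5 was at 2.34 against 10.5 CPM and HOXB8 at 3.90 against 13.4 CPM, each lower in 3 of 3 libraries. HOXB6 was at 3.12 against 10.5 CPM and lower in 4 of 4, with log2 ratios of -4.57 without library 4 and -1.11 without library 6 in place of -1.75. With overlapping groups its log2 ratio turned to 0.17. HOXA7 was at 2.34 against 7.99 CPM, with a log2 ratio of -2.68 without library 4 in place of -1.77. HOXB5 moved from -2.16 to -2.79 without library 6. HOXA10 was 4.05-fold lower when pooled but lower in 2 of 3 libraries, with a mean log2 ratio of -0.44 within libraries and -3.00 when library 1 was left out. HOXD8, at 10.5 CPM, was the 1 of 15 rows with a ratio above 1. The HOXA9 row was at 4.29 against 22.1 CPM and lower in 3 of 3 libraries.

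NTRK2 nuclei were low in HOXC and not in the other clusters. Of the 15 rows, 4 were at least 2-fold lower (4.46% of all rows), and these were the 4 HOXC rows: HOXC4 at 1.07 against 4.28 CPM, HOXC6 at 4.83 against 11.3, HOXC8 at 2.15 against 6.54 and HOXC9 at 2.15 against 6.62 CPM. Summed HOXC was 12.4 against 30.9 CPM, 2.50-fold lower (1.64 to 3.99), and lower in 5 of 5 libraries. It took 6.02% of the HOX UMIs of NTRK2 nuclei (3.855 to 8.90) and 20.7% of those of the other grouped nuclei. That share was below the other nuclei in each of the 5 libraries, from 3.19 against 16.3% in library 4 to 13.6 against 26.3% in library 5.

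Single HOXC rows in this group rest on few UMIs and shift with the libraries. HOXC9, with 4 UMIs there, was lower in 2 of 3 libraries, with a log2 ratio of -0.69 without library 1 and -3.56 without library 6. HOXC4, with 2 UMIs, had log2 ratios of -2.68, -2.72 and -1.38 without libraries 3, 4 and 6, and HOXC8 one of -2.35 without library 6. HOXC6 was lower in 5 of 5 libraries and had -0.91 without library 6. With overlapping groups 0 HOXC rows passed 2-fold, and HOXC8 (0.10) and HOXC6 (0.32) turned direction. With Leiden clusters HOXC4 was at -0.40 and HOXC6 at -0.11.

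In the same NTRK2 nuclei, HOXD1, HOXB8 and HOXA10 were at least 2-fold higher, 3 of 15 where 2.91% of all rows were. HOXD1 was at 29.5 against 10.6 CPM (2.79-fold, 2.00 to 3.84) and higher in 3 of 4 libraries, with 58.4 against 21.8 CPM in library 1. HOXB8 was at 24.2 against 9.96 CPM, higher in 3 of 4 libraries, but with Leiden clusters its log2 ratio turned to -0.34 and that of HOXD1 was 0.15. With overlapping groups 0 of 15 rows were past 2-fold higher. HOXA10, at 15.03 against 7.24 CPM, had a log2 ratio of 0.50 without library 3 and a mean of 0.11 within libraries. Summed HOXD was 2.02-fold higher (1.64 to 2.48), in 5 of 5 libraries. HOXB9, below the minimum of 50 UMIs and named here after its values were seen, had 15 of its 31 UMIs among grouped nuclei in NTRK2 nuclei. The HOXA9 row was at 40.8 against 15.8 CPM, higher in 4 of 4 libraries.

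**Figure D5:**
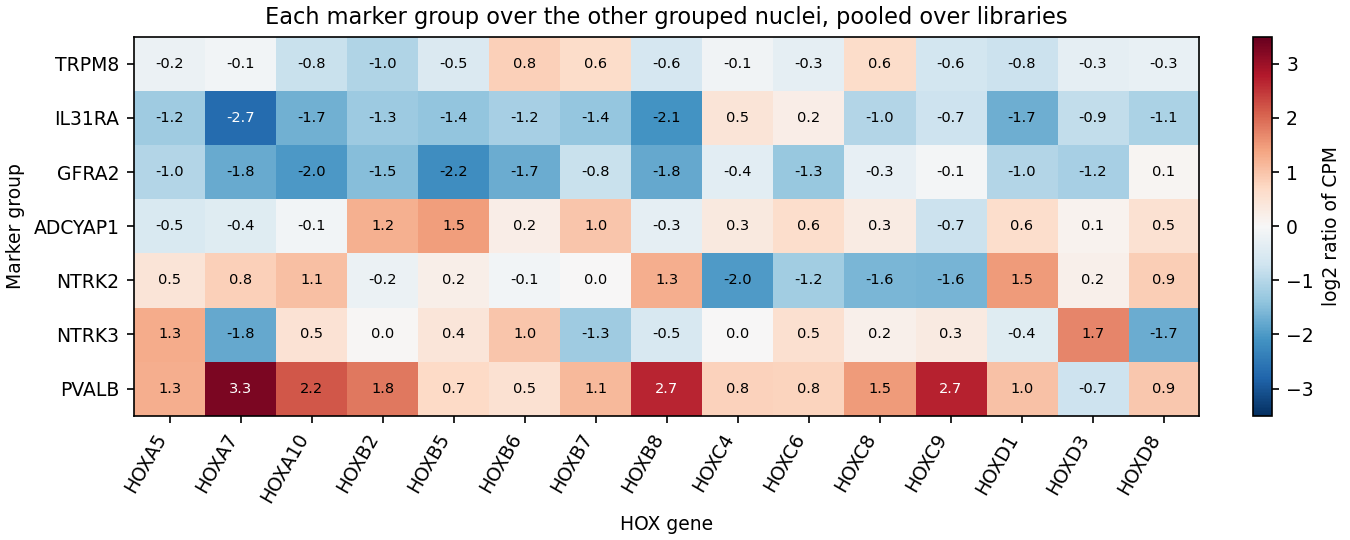
Log2 ratio of CPM for each HOX gene with at least 50 UMIs (columns) in each marker group over the other grouped nuclei (rows), pooled over libraries. The IL31RA and GFRA2 rows are mostly blue, the PVALB row is mostly red, and the 4 HOXC columns are blue in NTRK2.

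In NTRK3 nuclei, 2 of 15 rows were at least 2-fold higher, HOXA5 and HOXD3 (11.0% of all rows), and 3 lower, HOXA7, HOXD8 and HOXB7 (16.2%). These shares are near those of all rows, and with overlapping groups both counts were 0. HOXA5 was at 53.0 against 21.5 CPM (2.46-fold, 1.93 to 3.12) and higher in 5 of 5 libraries, with a mean log2 ratio of 0.82 within them. HOXD3 was at 22.3 against 6.81 CPM but drew on library 4, where it was at 42.3 against 9.34 CPM. Without that library its log2 ratio was 0.68, in place of 1.71. HOXA7 was at 2.23 against 7.66 CPM and lower in 3 of 3 libraries, with -0.90 without library 1 and 0.03 with overlapping groups. HOXD8, lower in 3 of 4 libraries, turned to 0.26 as a mean of CPM over nuclei. HOXB7 was lower in 1 of 2 libraries, with a mean of 0.14 within them. HOXD8 had a log2 ratio of -0.93 without library 4 and -2.44 without library 3, and HOXB7 -0.60 without library 4 and -2.13 without library 6. Without library 4, 1 row was higher and 1 lower.

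In ADCYAP1 nuclei, 2 of 15 rows were at least 2-fold higher (2.02% of all rows) and 0 lower (8.44%). These were HOXB5 and HOXB2, a hindbrain-level gene in the embryo. With Leiden clusters 0 rows were higher, with log2 ratios of 0.96 for HOXB5 and 0.81 for HOXB2. HOXB5 was at 19.0 against 6.92 CPM (2.75-fold, 1.90 to 3.96), and HOXB2 at 9.33 against 3.95 CPM (2.36-fold, 1.38 to 3.93), each higher in 3 of 3 libraries. HOXB7 was 1.96-fold higher (1.26 to 3.00), in 2 of 2. Summed HOXB was 71.1 against 43.5 CPM (1.64-fold, 1.38 to 1.94) and higher in 4 of 4 libraries, while HOXA was lower in 4 of 4. Without library 1 the count of higher rows was 4. The TRPM8 group had 0 rows higher (2.67% of all rows) and HOXB2 alone lower (5.65%), at 2.55 CPM from 5 UMIs. The HOXB2 ratio of 0.485 had an interval that held 1 (0.153 to 1.19), and HOXB2 was lower in 2 of 3 libraries. The count of lower rows was 0 without library 3 or library 5 and 4 without library 6. Summed HOXB was 51.5 against 47.8 CPM in TRPM8 nuclei and higher in 4 of 4 libraries.

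Several TALE partners of HOX proteins were detected. PKNOX2 was at 87.5 CPM, PKNOX1 at 74.1, MEIS2 at 56.5, PBX3 at 41.6, MEIS3 at 32.2, PBX4 at 25.5 and MEIS1 at 14.2 CPM, and PBX2 had 0 UMIs. Some of them differed at least 2-fold between a marker group and the other grouped nuclei, to be read against the shares of all rows given above for each group. PKNOX2 was higher in GFRA2 nuclei, at 171 CPM, and lower in ADCYAP1 nuclei (40.8 CPM) and PVALB nuclei (36.7 CPM). PBX3 was higher in NTRK2 nuclei, at 91.2 CPM, and MEIS2 was lower in IL31RA nuclei, at 24.8 CPM. In NTRK3 nuclei MEIS1 was higher, at 36.8 CPM, and MEIS3 lower, at 15.05 CPM.

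Other listed genes lie beside the clusters or act on HOX chromatin. The homeobox genes EVX1 and EVX2, which lie at the tail ends of HOXA and HOXD, had 0 UMIs. The flanking genes SKAP1 (49.9 CPM), SKAP2 (60.1), HIBADH (71.4), MTX2 (54.3), LNPK (82.1) and SNX10 (309) were expressed. Of 11 flanking genes tested, SKAP1 was past 2-fold lower in IL31RA nuclei and SNX10 past 2-fold higher in PVALB nuclei, with 0 in the other 5 groups. SNX10 was also at 631 CPM in library 1 as a whole, which held 53.4% of PVALB nuclei. In libraries 3, 4, 5 and 6 it was between 193 and 261 CPM. Of 11 Polycomb genes, whose products keep HOX genes silent, 1 was lower in each of the TRPM8, GFRA2 and NTRK3 groups and 0 in the other 4 groups. JARID2 was at 88.1, EZH1 at 40.2 and EZH2 at 8.39 CPM. The caudal regulators CDX1, CDX2 and CDX4, which switch on trunk HOX genes in the embryo, had 2, 0 and 1 UMIs. Of 8 Trithorax and demethylase genes, KDM6B was higher in NTRK3 nuclei, and in PVALB nuclei MEN1 was higher and KMT2B and KDM6B lower. Against the other libraries, KDM6B was also past 2-fold lower in libraries 1 and 3 as a whole, and KMT2B in library 3. Of 6 retinoid genes, RXRA was lower in IL31RA and ALDH1A2 higher in NTRK3 nuclei, while PVALB nuclei had RXRA and RXRG higher and ALDH1A2 and RXRB lower. In PVALB nuclei 14.4% of all rows were higher and 21.6% lower, and in NTRK3 nuclei 11.0% and 16.2%.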

How the data were processed

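The authors deposited 1 table of raw UMI counts per gene and nucleus, with no normalization. The tools Cell Ranger 6.0.1 and Seurat and the build Sscrofa11.1 are listed, per the submitters' processing notes, which assign them no step. Per the labels' protocols, nuclei came from 80 mg of tissue per sample, with different detergents and with density gradient, magnetic or flow sorting steps. For strand use and filters before deposit, nothing is stated.

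The members, gene lists and comparisons were chosen with earlier results of these data known. Levels are UMIs per 1000000 (Python 3.11.15, scipy 1.17.1), with exact Poisson intervals. Shares carry Clopper-Pearson intervals and ratios exact conditional binomial ones. A side at 0 was set to 3 counts, and 0.5 was added to each side within libraries. The script was tested on simulated data with 200 changed genes. No nucleus was removed, and no doublet caller was run. The text names rows with at least 50 UMIs. Per group, it was set to name up to 5 rows in each direction past 2-fold whose interval leaves out 1. Some further rows are also named, among them rows whose interval holds 1, and counts give all rows past 2-fold. Leiden clusters (scanpy 1.11.5, 2000 variable genes without HOX, resolution 1.0) served as an alternative grouping. The HOXA9 alternative was added after seeing the data. Some items are not reported here.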

Additional observations from a re-analysis of the deposited data

How the results depend on the processing

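No paired analysis was possible because the barcode endings are not tied to the pigs and no result comes from a test. Of the 119 alternatives for the summed log2 ratios of the marker groups, 114 kept their sign. Averaging CPM over nuclei gave a HOX level of 179.7 CPM over all nuclei, 184.8, 203.9 and 91.88 CPM in libraries 1, 3 and 5, a HOXC share of 14.46%, and log2 ratios of -1.397 (GFRA2), -0.04724 (ADCYAP1) and 1.248 (PVALB). Without mitochondrial UMIs in the denominator the level was 174.2 CPM, and 238.0 CPM in library 3. With the HOXA9 row it was 180.1 CPM, and 223.6, 210.6, 327.5 and 132.6 CPM in libraries 1, 3, 4 and 6, with a HOXC share of 15.49% and a share of 21.25% from groups 9 and above. Without nuclei above 50000 UMIs, library 4 was at 360.3 CPM, the HOXC share was 15.72%, 2 rows were lower in TRPM8 and 1 higher in ADCYAP1. The share of nuclei with a HOX UMI was 27.09% at 2000 UMIs and 50.11% unthinned.

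With Leiden clusters, log2 ratios were -0.9004 (IL31RA), -1.391 (GFRA2), 0.07427 (ADCYAP1) and 0.2317 (NTRK3), with 2 rows lower in TRPM8, 6 lower in IL31RA and 0 higher in ADCYAP1. With overlapping groups they were -0.822 (IL31RA), -0.5294 (GFRA2), 0.181 (NTRK2), 0.03236 (NTRK3) and 0.972 (PVALB). The counts were then 0 lower in TRPM8, 5 in IL31RA and 3 in GFRA2, and 0 in either direction in NTRK2 and NTRK3. Means within libraries were 0.2393 (TRPM8), -0.7808 (IL31RA), 0.2197 (NTRK3) and 0.9923 (PVALB), with 0 rows lower in TRPM8 and 0 higher in NTRK3. Thinning to 1000 UMIs gave 0.0412 (TRPM8), -1.456 (GFRA2), -0.1925 (ADCYAP1), 0.8741 (NTRK3) and 1.11 (PVALB). A marker minimum of 1 UMI gave 1.231 for PVALB, and minimums of 1 and of 3 UMIs gave 0 rows lower in TRPM8.

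Leaving out each library gave 146.6 to 177.9 CPM over all nuclei, a HOXC share of 15.05 to 19.87%, and log2 ratios of -0.2759 to 0.04354 (TRPM8, above 0 without library 4) and 0.2906 to 0.5858 (NTRK2). Counts ranged from 0 to 4 lower in TRPM8, 7 to 12 lower in IL31RA, 2 to 4 higher in ADCYAP1, and 1 to 3 higher and 1 to 4 lower in NTRK3.

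Single rows turned direction 7 times. With overlapping groups these were HOXB6 in GFRA2 (0.1652), HOXC8 (0.09757) and HOXC6 (0.3156) in NTRK2, and HOXA7 in NTRK3 (0.02621). HOXB8 in NTRK2 was at -0.3371 with Leiden clusters, HOXD8 in NTRK3 at 0.2597 as mean CPM, and HOXB7 in NTRK3 at 0.1389 within libraries. The cause was not tested. Rows with few UMIs in a group limit single-gene ratios.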
